A study of Mus musculus with 6 samples.

Results

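The transcripts of 8 genes through which endothelial cells (EC), the cells that line blood vessels, set the clotting of blood and the removal of clots were compared between the lungs of infant and young adult mice. The 8 genes are Vwf, F8, F3, Tfpi, Thbd, Procr, Pros1 and Plat. They were chosen by symbol, from the known function of their products in the vessel wall and with earlier results of these data known. All 8 were found among the 12623 genes measured, in 12 transcript rows. In young adult EC, Vwf and Thbd were higher and F3 was lower. Plat was lower in each young adult library than in each infant library without passing the test, Tfpi differed little, and Pros1, Procr and F8 overlapped between the ages.

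RNA-seq of sorted lung EC was performed on 6 libraries, 3 from infant (inf) and 3 from young adult (yAdu) mice, all C57BL/6N, for which neither a transgene nor a treatment is named. The study places the infant mice between the eighth day and the tenth day after birth and the young adult mice between the eighth week and the twelfth week of life, and its methods name the mice as female. FACS gates kept cells positive for CD31 and CD34 and negative for PTPRC, LYVE1, LY76, PDPN and the dead-cell dye propidium iodide. Whether animals were pooled for a library is not stated, so p-values measure the spread between these libraries. The comparison addresses which genes change as growing EC of the infant lung become the quiescent EC of the adult lung.

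Levels are given as RPKM, reads per kilobase of transcript scaled to the mapped reads of the library, as the authors deposited them, and values of single libraries follow the order of replicates 1 to 3. A gene was called, and is said to have risen or fallen, when its adjusted p (limma, Benjamini-Hochberg) was under 0.05 and the fold of log2(RPKM + 1) values exceeded 1.75. The sorted cells carried the endothelial markers Pecam1 (309.8 to 657.8 RPKM), Cdh5 (213.8 to 316.9) and Kdr (202.6 to 309.4) in all 6 libraries. The groups also differed in transcripts of other cells. Of 10 fibroblast markers, 9 were lower in young adult libraries, and their summed RPKM was 335.5 to 1290.8 in infant and 10.4 to 24.0 in young adult libraries. Of 9 mural markers, those of the pericytes and smooth muscle cells around vessels, 8 were lower, with sums of 68.2 to 233.2 and 11.8 to 15.5. Infant replicate 2 stood apart, with the lowest sums of both lists among the infant libraries, though the fibroblast sum is mostly collagen, and Dcn (7.6, 19.9 and 8.0 RPKM) and Lum (4.1, 14.4 and 4.7 RPKM) were highest in that infant library. Of 9 leukocyte markers 4 were lower (Ptprc, Cd52, Cd79a and S100a8), with overlapping sums of 319.1 to 518.2 in infant and 140.1 to 553.8 in young adult libraries, and S100a8 was listed at 0 in young adult replicates 1 and 2. Globin transcripts took 3.41% to 23.5% of the RPKM in infant libraries and 0.307% to 0.487% in young adult libraries. The Y-linked transcripts Ddx3y (16.5 to 21.9 RPKM) and Eif2s3y (15.1 to 19.3) were present in the 3 infant libraries. They were listed at 0 in the 3 young adult libraries, although the methods name female mice. The X-linked transcript Xist was at 8.2, 8.7 and 7.6 RPKM in infant libraries and 15.6, 12.5 and 13.4 RPKM in young adult libraries. Each infant library thus held Xist beside Y-linked transcripts, and whether it held animals of both sexes was not tested. Age and the sex of the animals therefore cannot be told apart in any value given here. In such bulk libraries fewer cells of a type and less RNA per cell cannot be told apart either.

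Blood clots when tissue factor, the product of F3, meets factor VIIa and starts a chain of proteases that ends in thrombin, and when platelets adhere to von Willebrand factor. Resting endothelium holds this back. TFPI blocks the tissue factor complex, thrombomodulin and the endothelial protein C receptor turn thrombin into an activator of protein C, which works with protein S as its cofactor, and tissue plasminogen activator starts the digestion of fibrin. The lung holds a vast capillary bed, and its endothelium is known for high levels of thrombomodulin.

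Vwf encodes von Willebrand factor, the multimeric protein that EC store in Weibel-Palade bodies and that tethers platelets and carries factor VIII in the blood. The gene lies on chromosome 6 (chr6:125552948-125686679, GRCm38). Vwf was at 33.8, 29.4 and 28.4 RPKM in the infant libraries and 157.1, 128.1 and 103.8 RPKM in the young adult libraries. The lowest young adult library lay well above the highest infant library. The mean level was 30.5 ± 2.87 RPKM in infant and 129.7 ± 26.7 RPKM in young adult EC (n = 3 each, SD). Their ratio was 4.25, and Vwf moved from rank 1723 to rank 315 among the 12623 genes ordered by level. On the log2(RPKM + 1) scale the difference was 2.03 (SE 0.16, 95% interval 1.66 to 2.41, adjusted p = 0.000642, limma). Vwf had the largest rise among the 7 of the 8 genes that were tested.

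Megakaryocytes and platelets also carry the Vwf transcript. Of 9 platelet markers 4 had values, and 0 of these 4 were called by limma, beside 11.4% of all genes tested. At an unadjusted p under 0.05 (limma) the count was 0 as well. Their sums overlapped (4.7 to 16.3 RPKM in infant, 7.4 to 14.2 RPKM in young adult libraries). The limma intervals of the log2 difference were wide for Pf4 (-0.69 to 1.24) and Ppbp (-0.30 to 1.57). Itga2b and Gp9 had differences of -0.35 and -0.22. With 4 markers at such low levels, these counts cannot show whether platelet transcripts differed between the ages. Within endothelium, Vwf is known to be higher in veins and large vessels than in capillaries. Summed RPKM of 6 venous markers was 38.9 to 46.8 in infant and 77.1 to 111.3 in young adult libraries, with 2 markers higher (Slc6a2 and Vcam1) and 1 lower (Nr2f2) among the 5 tested. Sums of 5 general capillary markers were also higher, at 454.2 to 644.9 RPKM in infant and 895.0 to 1224.2 RPKM in young adult libraries. Those of 7 arterial markers overlapped (188.6 to 261.4 and 193.9 to 292.2 RPKM), with Gja5 lower. Sums of 5 markers of aerocytes, another capillary cell type, overlapped as well (1262.4 to 2215.9 and 1481.8 to 2143.1 RPKM). The rise in sums was thus not particular to venous markers. The part of platelet or vessel type transcripts in the Vwf difference was not tested.

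F8 encodes factor VIII, the cofactor of factor IXa that circulates bound to von Willebrand factor. It lies on the X chromosome (chrX:75170344-75382738, GRCm38). F8 was at 0.6, 0.7 and 0.5 RPKM in the infant libraries and 0.9, 0.6 and 0.9 RPKM in the young adult libraries. The groups overlapped, each library stayed under 1 RPKM, and a rounding step of 0.1 is large at this level. F8 was therefore the only one of the 8 genes below the filter of the test, with means of 0.60 ± 0.10 and 0.80 ± 0.17 RPKM (SD, n = 3 each). Without the filter the difference on the log2(RPKM + 1) scale was 0.17 (95% interval -0.15 to 0.49, adjusted p = 0.402, limma). The partners thus differed in level within a library, as a log2 ratio of F8 to Vwf, each with 1 added, of -4.44, -4.16 and -4.29 in infant EC, against -6.38, -6.33 and -5.79 in young adult EC. The groups did not overlap in this ratio, which fell short of significance (difference -1.87, exact two-sided permutation p = 0.1), 0.1 being the smallest p that 3 against 3 libraries can give. With F8 this low, the ratio mostly restates the Vwf difference of 2.03 and is no separate result.

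**Figure D1:**
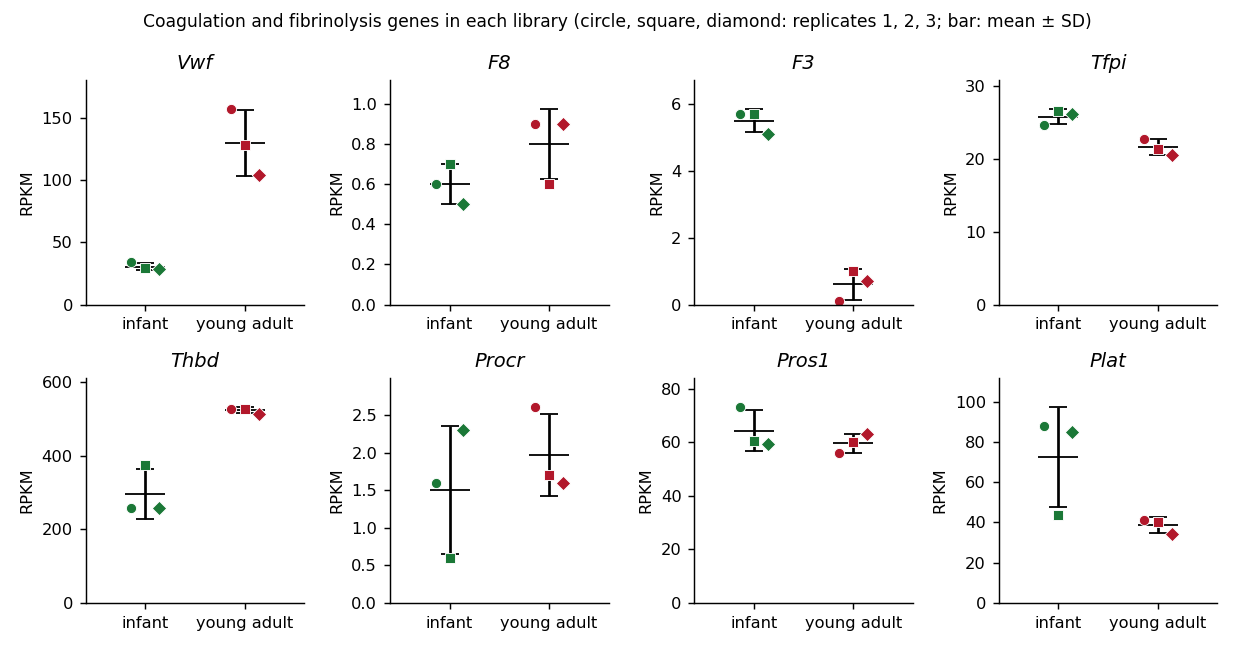
RPKM of each of the 8 genes (vertical axis, from 0, own scale per gene) in the 3 infant libraries (green) and the 3 young adult libraries (red). Symbols mark the replicate number, and bars the mean ± SD. Vwf and Thbd lie higher and F3 lower in every young adult library, and Plat spreads from 43.6 to 88.0 RPKM among infant libraries.

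F3 encodes tissue factor, the receptor that starts clotting on contact with plasma. Quiescent endothelium is known to carry little of it, while fibroblasts and other cells around the vessel carry much. F3 lies on chromosome 3 (chr3:121723537-121735052, GRCm38). It was at 5.7, 5.7 and 5.1 RPKM in the infant libraries and 0.1, 1.0 and 0.7 RPKM in the young adult libraries. All 3 young adult libraries were at or under 1 RPKM, where the rounding step of 0.1 limits the ratio. The mean was 5.50 ± 0.35 RPKM in infant and 0.60 ± 0.46 RPKM in young adult EC (SD, n = 3 each), and F3 moved from rank 6796 to rank 11502 of the 12623 genes. F3 fell by 2.06 on the log2(RPKM + 1) scale (SE 0.21, adjusted p = 0.00146, limma). With a pseudocount of 0.1 or 5 in place of 1 the difference was -3.32 or -0.91, and it passed the test under both.

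Fibroblast, mural and some leukocyte transcripts were also lower in young adult libraries, as given above, and their part in the F3 difference was not tested. In infant replicates 1 to 3, F3 was at 5.7, 5.7 and 5.1 RPKM and the summed fibroblast markers were at 1290.8, 335.5 and 909.2 RPKM. The fibroblast markers Dcn and Lum were highest in infant replicate 2, as given above. No fibroblast marker was listed at 0 in any library. Lung epithelium also carries tissue factor, and of 9 epithelial markers 4 were lower and 1 higher in young adult libraries, with sums of 6400.9 to 11209 RPKM in infant and 1791.1 to 8211.5 RPKM in young adult libraries, while Epcam was listed at 0 in young adult replicate 1. The part of these transcripts was not tested either. Of the mural list, Cspg4 was listed at 0 in young adult replicate 1. F3 still passed the test when infant replicate 2, or each other library in turn, was left out (log2 difference -2.25 to -1.82).

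F3 is a classic immediate response gene whose upstream region in human cells is known to hold sites for the AP-1 transcription factors. The 250 bases before its RefSeq start are shown because F3 had the largest fall of the 8 genes. Capitals mark matches to TGANTCA, a form of the AP-1 site that reads alike on both strands. The window runs 5′ to 3′ on the plus strand of GRCm38, at chr3:121723287-121723536.
F3: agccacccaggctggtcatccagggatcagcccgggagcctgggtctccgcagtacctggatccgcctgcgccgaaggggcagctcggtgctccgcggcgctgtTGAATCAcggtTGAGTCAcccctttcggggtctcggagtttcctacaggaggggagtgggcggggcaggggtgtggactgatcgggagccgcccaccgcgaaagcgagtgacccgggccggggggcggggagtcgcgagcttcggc
F3 held TGAATCA starting 146 bases and TGAGTCA starting 135 bases before the start. Such a match was not particular to F3. Procr, which did not pass the test, held TGACTCA starting 154 bases before a RefSeq start. The windows of F8, Pros1 and Tfpi held no match. The letters TGANTCA occur in 6.75% of the 32851 RefSeq windows of this length, so such a match is a description of the sequence and not a site shown to be bound. F3 also held 3 copies of the GC box letters GGGCGG (either strand, in 32.7% of windows) and no TATAAA (in 12.4%). Windows for Vwf, Thbd and Plat were not used here.

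Tfpi encodes tissue factor pathway inhibitor, which EC make and which blocks the complex of tissue factor and factor VIIa. It lies on chromosome 2 (chr2:84432855-84476775, GRCm38). In the transcript row with the highest level, Tfpi was at 24.6, 26.6 and 26.2 RPKM in the infant libraries and 22.8, 21.4 and 20.6 RPKM in the young adult libraries. The groups did not overlap, but the gap was small. The difference of -0.25 on the log2(RPKM + 1) scale (95% interval -0.45 to -0.04) did not pass the test (adjusted p = 0.0793, limma). In both other Tfpi transcript rows the groups overlapped, with 19.1 to 20.5 RPKM in infant and 18.4 to 19.7 RPKM in young adult libraries in one, and 18.8 to 20.2 and 18.1 to 19.5 RPKM in the other. Rows of the same gene share reads and are not independent. Tfpi thus stayed within a narrow range of levels while F3 fell.

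Thbd encodes thrombomodulin, the thrombin receptor of EC that turns thrombin from a clotting enzyme into the activator of protein C. It lies on chromosome 2 (chr2:148404471-148408188, GRCm38). Thbd was at 256.6, 375.5 and 257.3 RPKM in the infant libraries and 527.4, 527.7 and 513.5 RPKM in the young adult libraries. The young adult libraries lay within a few percent of each other and above all infant libraries, of which replicate 2 was the highest. Thbd was the most abundant of the 8 genes at both ages, with means of 296.5 ± 68.4 and 522.9 ± 8.11 RPKM (SD, n = 3 each), rank 89 of 12623 genes in infant and rank 49 in young adult EC. It rose by 0.84 on the log2(RPKM + 1) scale (SE 0.18, 95% interval 0.42 to 1.26, adjusted p = 0.0162, limma), a fold of 1.79 that lay just over the required 1.75. Thbd is among the molecules that the study named from these libraries, so its direction here is not independent evidence.

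The Thbd call was close to the threshold in these data. Without infant replicate 1 the difference was 0.75 (adjusted p = 0.0571), without infant replicate 3 it was 0.75 (adjusted p = 0.0548), and without young adult replicates 1, 2 or 3 it was 0.83, 0.83 or 0.85 (adjusted p = 0.0625, 0.0706 and 0.0500035, limma), none of which passed both thresholds. Without infant replicate 2 it was 1.02 and was called. The summed RPKM of 12 endothelial markers was 3567.4, 4904.3 and 3271.1 in infant EC, against 5349.0, 5656.5 and 5856.2 in young adult EC, highest among the infant libraries in replicate 2, as was Thbd. When the libraries were scaled to the same level of these markers, the Thbd difference was 0.37 (adjusted p = 0.0878) and was not called. Of the 5 general capillary markers 3 rose, with sums of 454.2 to 644.9 RPKM in infant and 895.0 to 1224.2 RPKM in young adult libraries, and their part in the Thbd difference was not tested. The endothelial scaling moved the median of all genes from -0.07 to -0.46, and relative to that median the Thbd difference was 0.91 before and 0.83 after scaling. The scaling divides each library by a single factor, so this distance could hardly change for any gene. It is therefore not a test of the Thbd rise.

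Procr encodes the endothelial protein C receptor, which presents protein C to the complex of thrombin and thrombomodulin. It lies on chromosome 2 as well (chr2:155751125-155755478, GRCm38), so 3 of the 8 genes share that chromosome, at distant positions. Procr was at 1.6, 0.6 and 2.3 RPKM in the infant libraries and 2.6, 1.7 and 1.6 RPKM in the young adult libraries. The groups overlapped, and infant libraries differed among themselves by more than the groups did. The means of 1.5 ± 0.85 and 1.97 ± 0.55 RPKM (SD, n = 3 each) gave a difference of 0.29 on the log2(RPKM + 1) scale (95% interval -0.33 to 0.92, adjusted p = 0.448, limma), an interval that leaves room for a change in either direction. Procr is known to be high in large vessels and low in capillaries, and here it was far below Thbd in all 6 libraries.

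Pros1 encodes protein S, the cofactor of activated protein C and a ligand of the TAM receptors Tyro3, Axl and Mertk. It lies on chromosome 16 (chr16:62854307-62929346, GRCm38). Pros1 was at 73.1, 60.7 and 59.5 RPKM in the infant libraries and 56.0, 60.3 and 63.0 RPKM in the young adult libraries. The groups overlapped, with means of 64.4 ± 7.53 and 59.8 ± 3.53 RPKM (SD, n = 3 each). The difference was -0.10 on the log2(RPKM + 1) scale with a 95% interval of -0.37 to 0.17 (adjusted p = 0.545, limma), an interval that does not reach the 1.75-fold threshold on either side. Of these 3 genes of the protein C pathway, Thbd rose and Procr and Pros1 did not pass the test.

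Plat encodes tissue plasminogen activator, the protease that turns plasminogen into plasmin on fibrin. It lies on chromosome 8 (chr8:22757722-22782848, GRCm38). Plat was at 88.0, 43.6 and 85.1 RPKM in the infant libraries and 41.3, 40.4 and 34.4 RPKM in the young adult libraries. The groups did not overlap, but infant replicate 2 lay well below the other infant libraries and just above the young adult libraries. The means were 72.2 ± 24.8 and 38.7 ± 3.75 RPKM (SD, n = 3 each), and the difference of -0.82 on the log2(RPKM + 1) scale (SE 0.26, 95% interval -1.41 to -0.23) missed the threshold (adjusted p = 0.0506, limma). Without infant replicate 2 it was -1.15 and passed (adjusted p = 0.000219). That library also had the lowest fibroblast and mural marker sums of the infant group, and Plat is known in mural and fibroblast cells as well as in EC. Dcn and Lum were highest in it, as given above. The part of these transcripts in the Plat values was not tested.

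**Figure D2:**
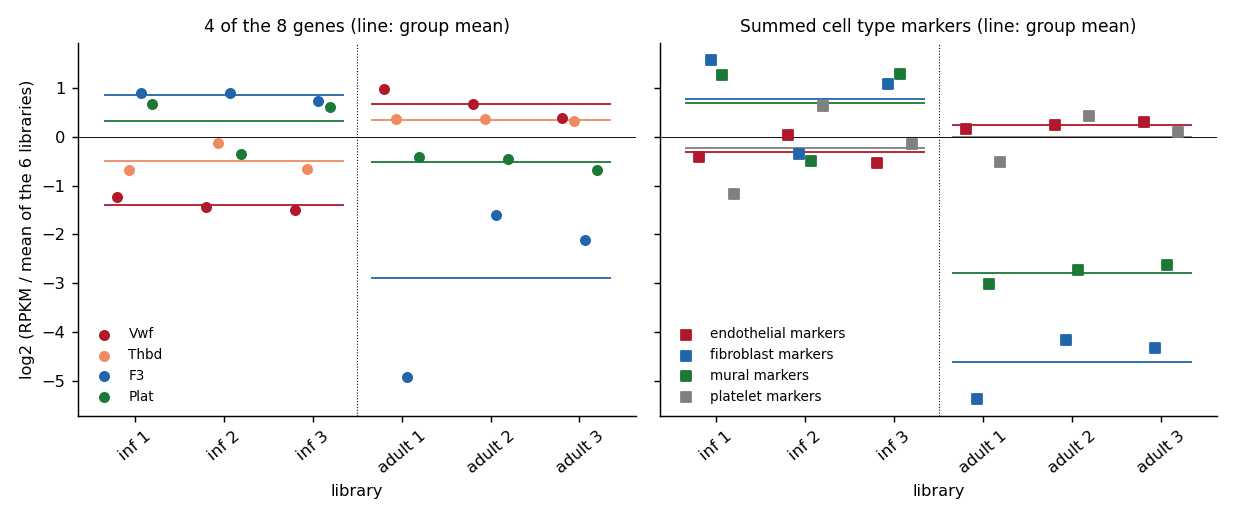
Left, log2 of the RPKM of Vwf, Thbd, F3 and Plat in each library over the gene's mean across the 6 libraries. Right, the same for the summed RPKM of endothelial, fibroblast, mural and platelet markers. Horizontal lines are group means. In infant replicate 2 (inf 2) Plat lies below the other infant libraries, as do the fibroblast and mural sums.

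Of the 7 genes tested, 3 were called (Vwf and Thbd higher, F3 lower), against 11.4% of all 12458 genes tested, 3.33% higher and 8.10% lower. Without the fold threshold the same 3 of the 7 had an adjusted p under 0.05, against 25.5% of all genes tested, 9.27% higher and 16.2% lower. In 5 of the 7 (Vwf, Thbd, F3, Tfpi and Plat) the libraries of the groups did not overlap, which was the case for 43.4% of all genes tested. The median log2 difference of the 7 genes was -0.10, beside -0.07 over all genes. With 7 genes, chosen with earlier results of these data known, these shares describe this set and are read no further.

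Ordered by mean RPKM, which is per length, infant EC carried Thbd, Plat, Pros1, Vwf, Tfpi, F3, Procr and F8, from high to low. RPKM does not correct for differences in amplification between transcripts, so this is an order of RPKM values only. The ranges of Plat and Pros1 overlapped, as did those of Procr and F8, so these neighbours did not differ beyond their spread. In young adult EC the order was Thbd, Vwf, Pros1, Plat, Tfpi, Procr, F8 and F3. F8 and F3 overlapped there. Vwf moved ahead of Plat and Pros1 in this order, and F3 moved from above Procr to the end. As a contrast of an anticoagulant with a procoagulant surface gene within a library, the log2 ratio of Thbd to F3, each with 1 added, was 5.26, 5.81 and 5.40 in infant EC, against 8.91, 8.05 and 8.24 in young adult EC. The difference was 2.90 with no overlap (exact two-sided permutation p = 0.1, the smallest possible), and it was 4.16 or 1.74 with a pseudocount of 0.1 or 5, so its size depends on the pseudocount. This ratio combines the Thbd and F3 differences given above and is no separate result.

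Around these 8 genes, 61 further genes of the pathway were listed by role, of which 36 had values and were tested and 25 were not analysed here, among them most liver-made clotting factors. Of the 36, 6 rose and 5 fell, 30.6% in all beside the 11.4% of all genes tested. Their median log2 difference was 0.08, and in 21 of them the groups did not overlap, beside 43.4% of all genes tested. The lists were drawn up with earlier results of these data known, so these shares describe them and are read no further. The lists were split by role as follows.

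Of the 9 genes listed for storage and partners of von Willebrand factor, 8 were tested, 2 rose, 1 fell and 5 did not pass. Selp, which encodes the P-selectin stored beside von Willebrand factor, was at 0.5, 0.4 and 0.5 RPKM in the infant libraries and 3.2, 3.2 and 2.7 RPKM in the young adult libraries, a rise of 1.46 on the log2(RPKM + 1) scale (adjusted p = 0.000816, limma). It rose from a low level, without overlap, as Vwf did from a higher one. Rab27a, a small GTPase of Weibel-Palade bodies, rose from 6.07 ± 1.53 to 13.7 ± 3.66 RPKM (SD, n = 3 each, adjusted p = 0.0155). Without infant replicates 1 or 3 or young adult replicates 1 or 2 the Rab27a difference of 1.04 was 0.93, 0.99, 0.91 or 0.95 and did not pass. Cd63, a tetraspanin of these bodies and of the lysosomes of many cell types, fell by 1.90 (adjusted p = 0.0101), with 66.2, 28.3 and 77.0 RPKM in the infant libraries and 10.2, 14.5 and 16.0 RPKM in the young adult libraries. Mmrn2, an endothelial matrix protein, was at 18.3 and 29.6 RPKM, a difference of 0.66 that had an adjusted p of 0.0166 but did not reach the fold threshold. Of the genes called in this list, Selp and Rab27a therefore rose and Cd63, which is not particular to these bodies, fell. Without the fold threshold 6 of the 8 had an adjusted p under 0.05, 4 higher and 2 lower, beside 25.5% of all genes tested. In Cd63 infant replicate 2 was the lowest infant library, as in the fibroblast and mural sums, whose part was not tested.

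Of 4 protease-activated receptors, through which thrombin and related proteases signal to cells, 2 were tested and 1 fell. F2r, the main thrombin receptor of EC, was at 29.8, 34.8 and 33.1 RPKM in the infant libraries and 14.8, 14.6 and 17.6 RPKM in the young adult libraries. It fell by 1.01 on the log2(RPKM + 1) scale (SE 0.11, adjusted p = 0.00164, limma), and did so without each library in turn. Infant replicate 2 was its highest value. Among the infant libraries the fibroblast and mural sums were lowest there, and Dcn and Lum were highest there. The part of these transcripts in the F2r difference was not tested. F2rl3, another thrombin receptor, was at 1.67 ± 1.01 and 0.43 ± 0.06 RPKM and did not pass (adjusted p = 0.0810). The 2 thrombin-binding surface genes Thbd and F2r therefore moved in opposite directions.

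Of 14 procoagulant factors 2 were tested and neither was called by limma, 1 having an unadjusted p under 0.05. F7, which encodes the plasma partner of tissue factor, was at 1.27 ± 0.31 and 1.20 ± 1.06 RPKM (adjusted p = 0.769, limma). F13a1, the fibrin crosslinking subunit, was at 0.73 ± 0.32 and 0.23 ± 0.12 RPKM (adjusted p = 0.0909). Of the 6 genes of the vitamin K cycle and of factor export, which protein S and the factor VIII pathway need, all 6 were tested and 0 were called by limma, 2 having an unadjusted and 1 an adjusted p under 0.05. This was Vkorc1, the vitamin K epoxide reductase, at 30.6 and 43.4 RPKM (log2 difference 0.50, adjusted p = 0.0206). P4hb, a disulfide isomerase, was the most abundant of the list at 164.6 and 134.7 RPKM (adjusted p = 0.177).

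Of 10 further anticoagulant genes 4 were tested, 1 rose and 1 fell. Hs3st1, whose sulfotransferase makes the heparan sulfate that binds antithrombin, was at 18.4, 30.2 and 19.6 RPKM in the infant libraries and 55.3, 44.4 and 50.1 RPKM in the young adult libraries, a rise of 1.13 on the log2(RPKM + 1) scale (adjusted p = 0.00683, limma). Like Thbd it was highest among the infant libraries in replicate 2, and with the libraries scaled to the endothelial markers it was at 0.68 and under the fold threshold. Serpine2, protease nexin-1, an inhibitor of thrombin and of plasminogen activators, was at 205.5, 21.4 and 177.4 RPKM in the infant libraries and 4.3, 7.2 and 4.9 RPKM in the young adult libraries. It fell by 3.88 (adjusted p = 0.0122), with a spread over the infant libraries that followed the fibroblast and mural sums, whose part was not tested. Without young adult replicate 1 the difference was -3.75 and did not pass (adjusted p = 0.0541). Anxa5, which shields negatively charged lipids, was at 182.2 ± 43.4 and 172.9 ± 4.86 RPKM (adjusted p = 0.875).

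Of 10 further genes of fibrinolysis 6 were tested, 1 rose and 5 did not pass. Without the fold threshold 2 of the 6, each higher in young adult libraries, had an adjusted p under 0.05, beside 25.5% of all genes tested. Plau, which encodes urokinase, the second plasminogen activator, was at 1.2, 1.4 and 0.5 RPKM in the infant libraries and 4.3, 4.3 and 7.5 RPKM in the young adult libraries. It rose by 1.64 on the log2(RPKM + 1) scale (SE 0.24, adjusted p = 0.00458, limma) and passed without each library in turn, but it remained below Plat at both ages. The urokinase receptor Plaur was abundant at 158.2 ± 37.6 and 212.5 ± 49.2 RPKM (adjusted p = 0.205), as was Anxa2, which holds plasminogen on the cell surface, at 178.7 ± 19.2 and 237.3 ± 27.2 RPKM (adjusted p = 0.0721).

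Of the 4 genes of protein S signalling, all 4 were tested, 1 rose and 1 fell. Axl, a TAM receptor, was at 9.2, 5.1 and 8.3 RPKM in the infant libraries and 0.5, 1.0 and 1.5 RPKM in the young adult libraries, and fell by 2.09 on the log2(RPKM + 1) scale (adjusted p = 0.00209, limma). Mertk, another receptor of the family, was at 16.3, 29.7 and 14.6 RPKM in the infant libraries and 35.1, 35.7 and 36.1 RPKM in the young adult libraries, and rose by 0.86 (adjusted p = 0.0338). The Mertk call was lost when single libraries other than infant replicate 2 were left out. Without infant replicates 1 or 3 it was 0.74 or 0.67 and without young adult replicates 1, 2 or 3 it was 0.87, 0.85 or 0.85, and it passed in none of these. The ligand Gas6 was at 5.90 ± 1.73 and 3.33 ± 0.25 RPKM, a difference of -0.64 with an adjusted p of 0.0339 that was under the fold threshold. The 2 receptors that passed the test moved in opposite directions, while their ligand Pros1 did not pass.

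Of 4 genes whose products restrain platelets, all 4 were tested, 1 rose and 1 fell. Entpd1, which encodes CD39, the enzyme that removes ATP and ADP, was at 14.7, 10.6 and 12.9 RPKM in the infant libraries and 34.7, 37.3 and 22.2 RPKM in the young adult libraries, a rise of 1.22 on the log2(RPKM + 1) scale (adjusted p = 0.00700, limma). Nt5e, which encodes CD73, the next enzyme that makes adenosine, was at 4.9, 1.6 and 4.7 RPKM in the infant libraries and 0.3, 1.0 and 0.5 RPKM in the young adult libraries, and fell by 1.5 (adjusted p = 0.0168). Without infant replicates 1 or 3 or young adult replicates 1 or 3 the Nt5e difference was -1.29, -1.32, -1.36 or -1.46 and did not pass. Consecutive enzymes of the same route thus moved in opposite directions. Ptgis, the prostacyclin synthase, was at 9.5 ± 2.36 and 11.3 ± 0.26 RPKM (adjusted p = 0.283).

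**Figure D3:**
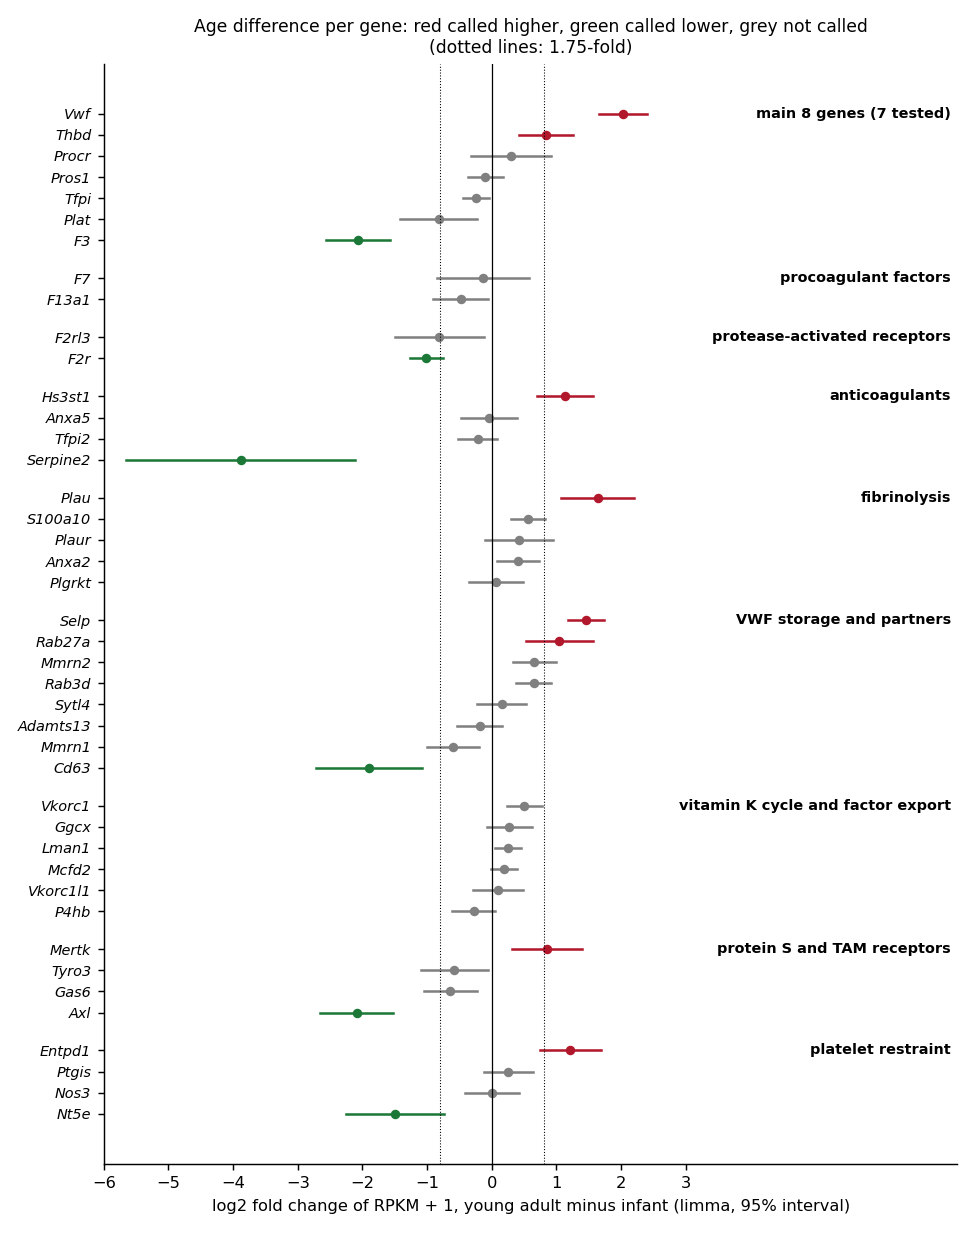
Log2 difference of RPKM + 1 (young adult minus infant, horizontal axis) with its 95% interval from limma for the 7 tested of the 8 genes and other pathway genes that were tested, ordered by role. Red and green mark genes called higher and lower, grey the rest, and dotted lines the 1.75-fold threshold. Of the genes drawn outside the main 8, 6 are red and 5 green, and Serpine2 has the widest interval, -5.65 to -2.12.

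In Serpine2, Cd63, Axl and Nt5e, 4 of the 5 pathway genes that fell, infant replicate 2 was the lowest infant library, as it was for the fibroblast and mural sums. In F2r it was the highest, as it was for the fibroblast markers Dcn and Lum. The part of these transcripts was not tested. With the libraries scaled to the endothelial markers, which shifts the differences of all genes (median -0.46 in place of -0.07), 2 of the 36 genes rose and 8 fell in place of 6 and 5. Hs3st1, Rab27a, Mertk and Entpd1 then had differences of 0.68, 0.63, 0.41 and 0.77 and were no longer called. Relative to the median of all genes these 4 were at 1.20, 1.12, 0.93 and 1.29 before and 1.14, 1.09, 0.87 and 1.23 after the scaling. A single factor per library leaves such distances nearly unchanged for any gene, so they do not test these rises. Selp and Plau were still called higher. Vwf and F3 were called under that scaling as well, with differences of 1.57 and -2.35.

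**Figure D4:**
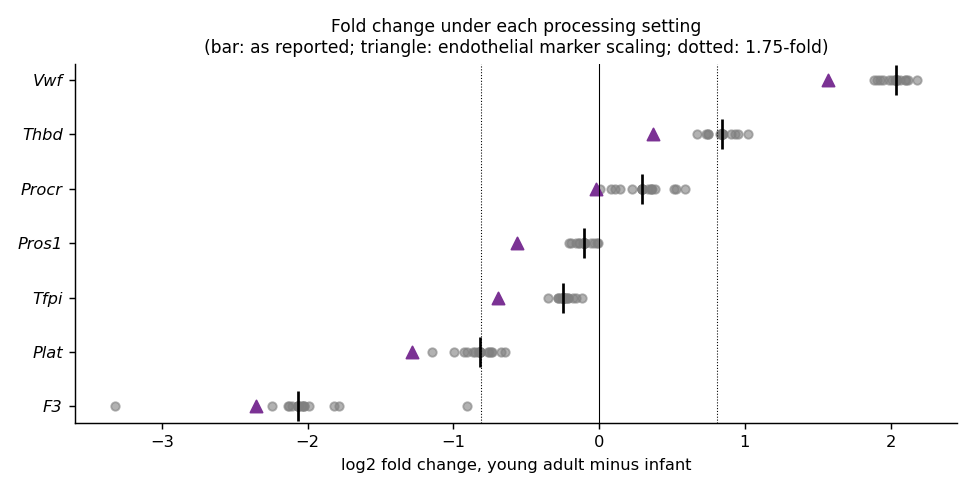
Log2 difference (young adult minus infant, horizontal axis) of the 7 tested genes under each processing setting and without each library in turn. Black bars are the values as reported, grey points the alternatives, purple triangles the scaling to endothelial markers, and dotted lines the 1.75-fold threshold. Vwf and F3 stay outside the dotted lines in each setting, and the Thbd and Plat values lie on both sides of them.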

How the data were processed

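RNA-seq of lung EC was analysed in 6 libraries, 3 infant and 3 young adult, grouped by their titles. Per the study's methods, lungs were digested with collagenase, and libraries were made from total RNA of sorted cells with a SMARTer Ultra Low kit. Paired ends were sequenced on a HiSeq2000 and aligned to mm10 with STAR. Values deposited by the authors were RPKM, rounded to 1 decimal, per RefSeq transcript (17241 rows, 0 further columns). Read counts were not analysed here, so depth is unknown and single values carry no counting error. An abundant transcript, such as globin, lowers all other RPKM of its library.

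The row with the highest mean was kept for each of 12623 genes (2842 had more than 1 row, and symbols turned into dates were restored in 24 rows). In place of the study's count test, limma 3.58.1 in R 4.3.3 was fitted to log2(RPKM + 1) with an intensity trend, age group as the single term and p-values adjusted by Benjamini-Hochberg over the 12458 genes that reached an RPKM of 1 in any library. A gene was called, written as rose or fell, at an adjusted p under 0.05 and a fold over 1.75, the filter and fold of the study. The pseudocount understates folds of low genes. Ratios were compared with exact two-sided permutation tests. The fit was tested on simulated data, where 90% of 200 genes changed by 1.5 on the log2 scale among 12458 were recovered and 6 other genes were called.

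All 8 genes were named with every value. Of the other pathway genes, those called and the 2 most abundant of each list were named, except that 1 gene and its ratio are not reported here. Members and lists were chosen with earlier results of these data known. Positions and upstream sequences are from RefSeq on GRCm38.p6, which shares mm10 coordinates. Alternatives were other pseudocounts, filters, scalings, variance models and thresholds, the mean over transcript rows, a replicate block and leaving out each library, plus rescaling without globin genes, which was added after seeing the data.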

Additional observations from a re-analysis of the deposited data

How the results depend on the processing

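Of the 8 genes, 2 to 4 were called over 22 alternatives, against 3 as reported. Vwf (1.57 to 2.18) and F3 (-3.32 to -0.91) were called in every alternative fitted to them. Thbd was also under the fold threshold with quantile normalization (0.67) and with rescaling without globin genes (0.73), was not called by limma treat, which called Vwf and F3, and its range without single libraries was 0.75 to 1.02. Plat was called with a pseudocount of 0.1 (-0.83, adjusted p = 0.0476), endothelial marker scaling (-1.28), array weights (-0.995) and rescaling without globin genes (-0.93), and its range without single libraries was -1.15 to -0.65. Procr reversed to -0.024 under endothelial marker scaling, where its value relative to the median of all genes was 0.44. Under that scaling Tfpi was at -0.70 (adjusted p = 0.0135) and Pros1 at -0.57 (adjusted p = 0.0351), neither past the fold threshold, and relative to the median of all genes they were at -0.24 and -0.10. Values relative to the median hardly depend on this scaling and are a description only. The cause of these shifts was not tested.

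Of the other 36 genes, 11 were called as reported, 6 with a pseudocount of 5, 17 with no fold threshold, 2 with limma treat and 7 to 13 without single libraries, the lowest without young adult replicate 1. Over all genes 1424 were called, 578 with a pseudocount of 5, 176 with limma treat and 3178 with no fold threshold. The split of 415 higher and 1009 lower became 195 and 2277 under endothelial marker scaling and 532 and 610 under quantile normalization. The ratio differences kept their direction in 10 alternatives each, with ranges of 1.74 to 4.16 for Thbd to F3 and -2.06 to -1.71 for F8 to Vwf.

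No link between infant and young adult libraries beyond a shared replicate number is stated. Deviations of same-numbered libraries correlated at 0.03, -0.11 and -0.02, and those of differently numbered libraries at -0.12 to 0.11. These correlations cannot show whether same-numbered libraries shared a day or a batch. With the replicate number as a block, 3 of the 8 genes, 11 of the other pathway genes and 1371 of all genes were called, and the sign-flip p of the ratios was 0.25 for Thbd to F3 and for F8 to Vwf, 0.25 being the smallest possible with 3 pairs. Depth is unknown, so differences of F8, Procr and young adult F3, at 0.1 to 2.6 RPKM, are limited by rounding as well as by the 3 libraries per group.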

Other observations

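Genes whose levels ran most alike with Vwf, Thbd and F3 across the libraries were looked up by the Pearson correlation of log2(RPKM + 1) among genes with a mean of at least 5 RPKM. The 6 points fall into the 2 age groups, which differ in cell makeup and sex-linked transcripts. A high r is therefore had by many genes and is given as a description. Nearest to Vwf were Slc6a2, the noradrenaline transporter (r = 0.9992, 3.77 RPKM in infant and 35.9 RPKM in young adult EC), Specc1 (r = 0.9979) and Samd12 (r = 0.9975). Nearest to Thbd were Dhx58, a helicase of the antiviral response (r = 0.9991, 4.17 and 11 RPKM), Xdh, xanthine dehydrogenase (r = 0.9989, 25.5 and 202.1 RPKM), and Cept1, an enzyme of phospholipid synthesis (r = 0.9983). Nearest to F3 were Hhip, the hedgehog-interacting protein (r = 0.9989, 15.2 and 3.13 RPKM), Apoe, apolipoprotein E (r = 0.9936, 35.3 and 8.60 RPKM), and Trp53inp2 (r = 0.9935). These searches covered 6983 genes for Vwf and Thbd and 6984 for F3.

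The lymphatic marker Lyve1, whose protein the sort selected against, was at 68.6, 171.4 and 82.7 RPKM in infant and at 396.4, 307.9 and 252.9 RPKM in young adult replicates 1 to 3. It was the only one called of the 4 lymphatic markers tested. The others had lower means in young adult libraries, with Pdpn at 1.13 and 0.43 RPKM, Flt4 at 17.8 and 14.2 RPKM and Ccl21a at 0.57 and 0.23 RPKM. The Lyve1 values therefore do not stand for the lymphatic list.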
